A study of Mus musculus with 2 samples.

Results

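The enzymes of the tricarboxylic acid (TCA) cycle were followed in the RNA of vesicles released by mouse CTL. These cytotoxic T lymphocytes destroy cells that are infected or transformed. The 9 genes were Cs, Idh3a, Idh3g, Ogdh, Dlst, Suclg1, Fh1, Mdh1 and Mdh2, chosen by gene symbol in the annotation of the array, and each was represented by 1 probe. They are 9 of the 19316 genes named on the array, and 9 of the 13735 that had a value on both arrays. The CTL were cultured for 7 days, and the medium was concentrated by ultrafiltration with a cutoff of 750 kDa and loaded on a DEAE column. DEAE carries positive charge and binds vesicles through their negative surface, and rising salt releases first those that are held less tightly. One group was the vesicle fraction eluted with 0.3 M NaCl and the other the fraction eluted with 0.5 M NaCl, both from the medium of the same kind of culture. Each fraction was hybridised, as amplified total RNA labelled with Cy5, to 1 array. Strain, stimulus and how many preparations were pooled are not stated in the sources at hand.

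The TCA cycle runs in the mitochondrial matrix, where it oxidises the acetyl group of acetyl-CoA to carbon dioxide and passes the electrons to the respiratory chain as NADH and as reduced flavin. Its enzymes are encoded in the nucleus, made in the cytosol and imported. In activated T cells the cycle also supplies citrate for lipid synthesis and aspartate for nucleotide synthesis, so its intermediates are drawn off and refilled. The 9 genes cover citrate synthase (Cs), 2 of the subunits of the NAD-dependent isocitrate dehydrogenase (Idh3a and Idh3g), 2 parts of the 2-oxoglutarate dehydrogenase complex (Ogdh and Dlst), the shared subunit of succinyl-CoA ligase (Suclg1), fumarase (Fh1) and malate dehydrogenase (Mdh2). Mdh1 is the cytosolic malate dehydrogenase, a partner of Mdh2 in the malate-aspartate shuttle and not a matrix enzyme.

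The values are whole-number probe intensities on a linear scale. There was 1 array per fraction, so no test, p-value or standard deviation between replicates could be had, and every difference describes this pair of arrays. How precise the values are is limited by the number of arrays. Of 23473 probes, 80.8% had a value at 0.3 M and 71.3% had one at 0.5 M. Over the 16154 probes measured on both arrays the median intensity was 32 at 0.3 M and 26 at 0.5 M, a shift of -0.30 on the log2 scale. Differences are therefore given as log2 at 0.5 M minus log2 at 0.3 M after the median of each array over these shared probes was subtracted, which adds 0.30 to every raw log2 ratio. Genes that reached the median over measured genes, an intensity of 32.0 at 0.3 M or 26.1 at 0.5 M, were kept, 7446 in all, with a median difference of 0.08. All 9 enzymes had a value on both arrays and all 9 were kept, 7 of them on both arrays, Idh3a through the 0.3 M array and Ogdh through the 0.5 M array. After centring, a gene kept through 1 array alone had to be higher on that array. In RNA of a whole fraction, more vesicles carrying a transcript and more copies per vesicle cannot be told apart.

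The 9 enzymes did not move as a block between the fractions. After centring, 6 lay above 0 and 3 below, with a median difference of 0.17 and a range from -1.09 (Idh3a) to 0.89 (Idh3g). Over all kept genes 55.9% lay above 0. None of the 9 was at least 2-fold higher at 0.5 M, where 5.24% of kept genes were, and 1 was at least 2-fold lower, Idh3a, where 2.35% of kept genes were (7.59% in either direction). Idh3a, kept through its 0.3 M value alone, had to be lower at 0.5 M, and Ogdh, kept through its 0.5 M value alone, had to be higher. These counts of the 9 were the same with no filter on dim genes. In the deposited intensities, before any scaling, 4 enzymes (Cs, Idh3g, Ogdh and Suclg1) were brighter at 0.5 M and 5 (Idh3a, Dlst, Fh1, Mdh1 and Mdh2) were dimmer. Of all probes with a value on both arrays, 30.6% were brighter at 0.5 M.

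**Figure D1:**
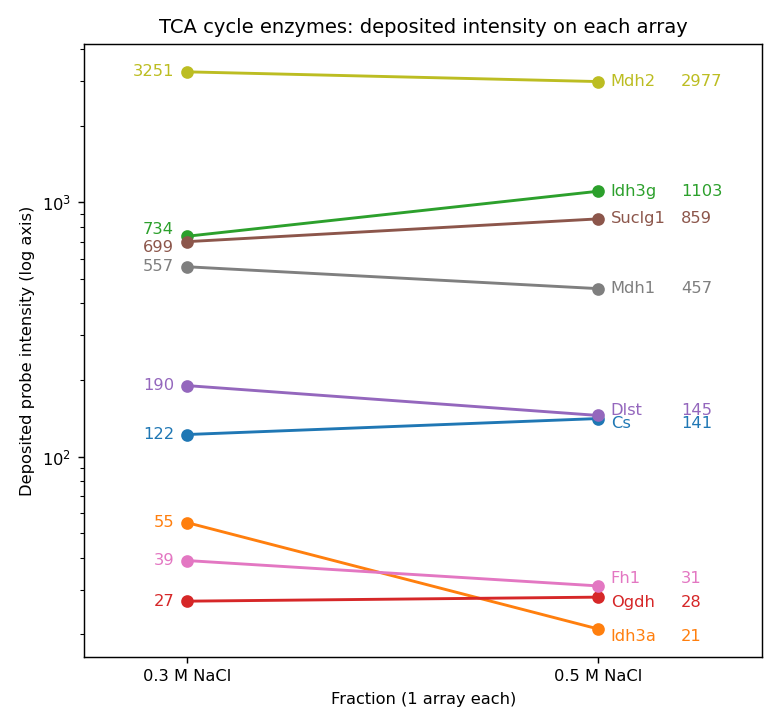
Deposited probe intensity (log axis) of the 9 enzymes on the 0.3 M and the 0.5 M NaCl array, 1 point an array with no replicates. Idh3a has the steepest line, from 55 down to 21, and Idh3g, Suclg1, Cs and Ogdh have higher intensities at 0.5 M. Heights of different lines are not comparable, since probes differ in how strongly they bind.

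Citrate synthase, which joins acetyl-CoA and oxaloacetate to open the cycle, had a Cs probe intensity of 122 at 0.3 M and 141 at 0.5 M. Its difference after centring was 0.51 (1.42-fold higher at 0.5 M), larger than that of 77.1% of kept genes. Csl, a close relative of Cs, had a probe of its own at 21 and 9, so its values ran the other way. Whether the Cs probe also binds Csl was not tested.

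The NAD-dependent isocitrate dehydrogenase makes 2-oxoglutarate and releases carbon dioxide, and its subunits lay at the opposite ends of the 9. Idh3a, the catalytic alpha subunit, had an intensity of 55 at 0.3 M and 21 at 0.5 M. Its difference was -1.09 (2.13-fold lower at 0.5 M), and 1.54% of kept genes had a lower one. Idh3g, the regulatory gamma subunit, had an intensity of 734 at 0.3 M and 1103 at 0.5 M. Its difference was 0.89 (1.85-fold higher), and 92.1% of kept genes had a lower one. The third subunit gene, Idh3b, was dim on both arrays, at 25 and 26, and lay just under the level set for kept genes.

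The gap between Idh3g and Idh3a was 1.98 on the log2 scale, and a constant shift between the arrays cancels in it. It was 1.70 with quantile normalization, 1.62 after removal of a loess trend and 1.52 with a pseudocount of 16. Different probes of the same gene gave the one spread these arrays allow, an SD of 0.55 per probe over 358 kept genes with several probes, which gives 0.78 for a gap between 2 probes. That spread leaves out variation between vesicle preparations. Idh3a (-1.17 from the median of kept genes) and Idh3g (0.81) were the 2 enzymes that lay more than 1 such SD from that median, and the other 7 lay within it. With the SD of 0.48 between bright probes, Suclg1 (0.52) lay beyond it too. At 0.5 M the Idh3a probe was below the median of shared probes on that array, and with the pseudocount its difference was -0.75, short of 2-fold.

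The 2-oxoglutarate dehydrogenase complex, which releases the next carbon dioxide and forms succinyl-CoA, showed small differences. Ogdh, its E1 component, went from 27 to 28, near the middle of each array. Its difference was 0.35, of which 0.30 is the centring, and rounding to whole numbers alone can move it by 0.05. Dlst, the E2 succinyltransferase, went from 190 to 145, a difference of -0.09. The gap of 0.44 between them was smaller than the probe spread of a gap. Dld, the E3 component shared with pyruvate dehydrogenase, was dim at 12 and 7.

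Suclg1, the alpha subunit of succinyl-CoA ligase, forms succinate together with a beta subunit that decides whether GTP or ATP is made. It went from 699 to 859, a difference of 0.60 (1.51-fold higher), and 81.6% of kept genes had a lower one. Both beta subunit genes were dim, Suclg2 at 24 and 11 and Sucla2 at 13 and 10, and neither was kept. Fh1, the fumarase that hydrates fumarate to malate, went from 39 to 31, a difference of -0.03.

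The malate dehydrogenases oxidise malate to oxaloacetate, Mdh2 in the matrix and Mdh1 in the cytosol. Mdh2 went from 3251 to 2977. Its difference was 0.17 after centring but -0.13 as deposited, -0.22 with quantile normalization and -0.36 with loess. Mdh1 went from 557 to 457, with differences of 0.01, -0.29, -0.18 and -0.26 under the same 4 scalings. The pair thus had both probes lower at 0.5 M in raw intensity, and neither had a direction that held across scalings. Their gap was 0.16, and -0.10 with loess, so the matrix and the cytosolic form could not be separated. Without Mdh1, 5 of 8 matrix enzymes lay above 0 and the median was 0.26.

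**Figure D2:**
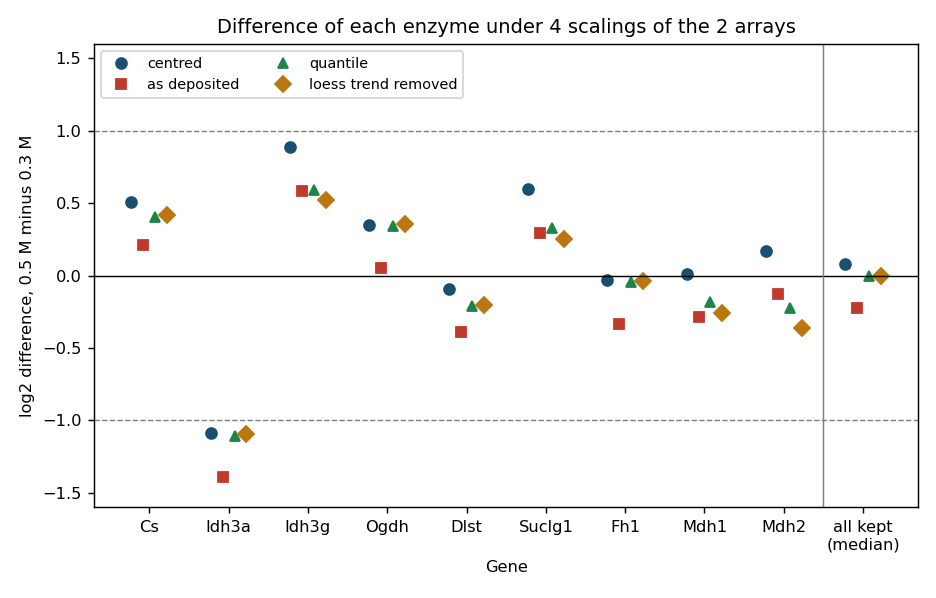
The log2 difference (0.5 M minus 0.3 M) of each enzyme under 4 scalings, with the median of the 7446 kept genes at the right; solid line at 0, dashed lines at 2-fold. Cs, Idh3g, Ogdh and Suclg1 are above 0 and Idh3a, Dlst and Fh1 below 0 under all 4, whereas Mdh1 and Mdh2 are above 0 when centred and below 0 in the other 3.

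The direction of 7 of the 9 enzymes was the same under centring, as deposited, with quantile normalization and with loess. Cs (0.21 to 0.51), Idh3g (0.52 to 0.89), Ogdh (0.05 to 0.35) and Suclg1 (0.25 to 0.60) were above 0 under these 4 scalings. Idh3a (-1.39 to -1.09), Dlst (-0.39 to -0.09) and Fh1 (-0.33 to -0.03) were below 0. Rounding to whole numbers alone can move Fh1 by 0.04 and Ogdh by 0.05. For both genes this is as large as the smallest of these differences, so their directions are not resolved. The median of the 9 turned with the scaling, from 0.17 after centring to -0.13 as deposited, -0.04 with quantile normalization and -0.04 with loess. The corresponding medians of all kept genes were 0.08, -0.22, 0.00 and 0.00. The median of the enzymes was thus within 0.10 of that of all kept genes under each of these scalings.

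Brightness also moved with the difference. Among kept genes divided into 10 groups of rising mean intensity, the median difference ran from -0.04 in the dimmest to 0.46 in the brightest. Idh3g, Suclg1 and Mdh2 fell in the brightest group. Idh3g lay 0.42 above and Suclg1 0.13 above the median of that group, while Mdh2 deviated from it by -0.29. Cs lay 0.46 and Ogdh 0.40 above the medians of their own groups. Idh3a (-1.12), Dlst (-0.24), Mdh1 (-0.21) and Fh1 (-0.06) lay below. In all, 4 of the 9 lay above the median of their brightness group and 5 below, and the median of these deviations was -0.06.

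**Figure D3:**
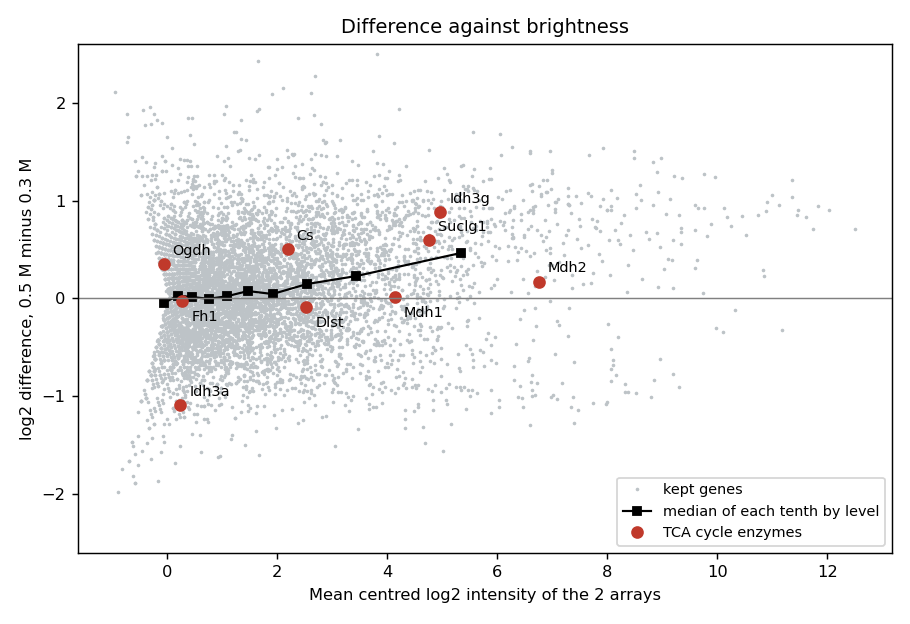
The log2 difference (0.5 M minus 0.3 M, after centring) against the mean centred log2 intensity of both arrays for kept genes (grey; 3 lie beyond the axis), with the median of each of 10 brightness groups (black squares) and the 9 enzymes (red). The enzymes lie on both sides of the black line, 4 above and 5 below, with Idh3a the farthest from it.

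The same was read in raw intensities, in a comparison chosen after the data were seen. Of the 820 probes within 10% of the Idh3a intensity at 0.3 M, the median was 43 at 0.5 M with quartiles of 34 and 55, and 1.95% were below the 21 of Idh3a. Starting from 0.5 M, 1266 probes lay within 10% of Idh3a, with a median of 25 at 0.3 M, and 1.26% of them exceeded its 55. Idh3g, at 1103, was above 91.7% of the 132 probes that matched it at 0.3 M, whose median was 688 at 0.5 M. It stood out less from 0.5 M, where 71.1% of the 83 matching probes exceeded its 734 at 0.3 M. Fh1, at 31, was level with the median of 30.5 of the probes that matched it at 0.3 M. Mdh1 (above 42.8%), Dlst (40.4%) and Mdh2 (36.4%) stood somewhat below the middle of theirs, and Suclg1 was above 68.4%. Starting from 0.5 M, Suclg1 was in the middle, at 699 against a median of 698.5. Cs (81.3%) and Ogdh (76.1%) were in the upper part.

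The other enzymes of the cycle were taken from a list of 14, of which 13 were on the array, 11 had a value on both arrays and 5 were kept. All 5 lay above 0 after centring, with a median of 0.40, and 0 passed 2-fold. Over all 11 with a value on both arrays the median was 0.08, since dim genes such as Aco1 (18 to 8, -0.87), Suclg2 (-0.83) and Dld (-0.48) lay below 0. Idh2, the mitochondrial NADP-dependent isocitrate dehydrogenase, went from 221 to 309 (0.78; 0.48 as deposited). The other 4 were the subunits of succinate dehydrogenase, which belongs both to the cycle and, as complex II, to the respiratory chain. The membrane anchors Sdhc (474 to 588, 0.61) and Sdhd (101 to 108, 0.40) had larger differences than the flavoprotein Sdha (77 to 66, 0.08) and the iron-sulfur subunit Sdhb (146 to 131, 0.14). As deposited, Sdha (-0.22) and Sdhb (-0.16) were below 0. Each gap between these subunits was smaller than the 0.78 that the probe spread gives for a gap. With loess, Sdhc and Sdhd were both at 0.33, against 0.04 for Sdha and 0.05 for Sdhb.

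Joined with the 9, the whole cycle had 22 genes on the array and 14 kept. Of these 14, 11 lay above 0 after centring, 7 as deposited and 9 with each of quantile normalization and loess. The medians were 0.26, -0.04, 0.17 and 0.15. Without succinate dehydrogenase, 7 of 10 lay above 0 after centring and 5 of 10 under the other 3 scalings. Over all 7446 kept genes, 4159 lay above 0 after centring, 2562 as deposited, 3681 with quantile normalization and 3714 with loess. All 9 of the enzymes described first were kept, against 5 of the 13 others on the array, so the 9 do not stand for the dim part of the cycle.

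The question was whether mitochondrial enzymes outside the respiratory chain were higher at 0.5 M, as the respiratory chain genes were. The nuclear-encoded genes of complexes I to V, succinate dehydrogenase included, had a median difference of 0.67 over 70 kept genes, and 63 (90.0%) lay above 0. At least 2-fold higher were 11 (15.7%, against 5.24% of kept genes) and 0 were lower. That count rests on the centring. It was 2 as deposited and with quantile normalization, 2 with loess (and 1 lower), and 6 with a pseudocount. Of all 7446 kept genes, 121 were at least 2-fold higher and 579 lower as deposited, and 242 and 288 with quantile normalization. Their counts were 231 and 293 with loess and 157 and 98 with a pseudocount. Mitochondrial enzymes outside the chain were a set joined after the values were seen from the cycle, pyruvate entry, shuttle, fatty acid oxidation and matrix lists. Cytosolic enzymes were left out, while carriers of the Slc25a family, which are transporters and not enzymes, stayed in. With the carriers included, this set had a median of 0.08 over 58 kept genes, equal to that of all kept genes to 2 decimals. Of these, 33 (56.9%) lay above 0, against 55.9% of all kept genes, with 2 at least 2-fold higher (Pck2 and Acadm) and 1 lower (Idh3a). These were 0 and 5 as deposited, 1 and 1 with quantile normalization and with loess, and 0 and 0 with a pseudocount. In this set 4 genes were kept through the 0.5 M array alone, Acadm among them, and 4 through the 0.3 M array alone. Over the 50 kept through both, 29 lay above 0, the median was 0.08 and 1 was at least 2-fold higher. Over the 67 such genes of the respiratory chain it was 0.68, with 10 at least 2-fold higher. In the set outside the chain, each kept Slc25a carrier lay below the median of the set. These were Slc25a11 (-0.19), Slc25a12 (-0.11), Slc25a13 (-0.10), Slc25a21 (-0.07), Slc25a1 (0.04) and Slc25a10 (0.07). Without the carriers the median would lie between the values of Hadhb (0.16) and Mdh2 (0.17), above that of all kept genes. The set also holds 8 of the 9 enzymes. Without them but with the carriers, the median was 0.05 over 50 genes.

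This order of the medians was the same under the other scalings. The respiratory chain had medians of 0.37 as deposited, 0.40 with quantile normalization and 0.34 with loess. Those of the set outside it, carriers included, were -0.22, -0.05 and -0.05. Respiratory chain genes were brighter, with 55 of 70 in the 3 brightest groups against 22 of 58. Within those 3 groups the medians were 0.73 and 0.20. Relative to the median of their own brightness group, 52 of 70 respiratory chain genes (74.3%) and 27 of 58 of the others (46.6%) lay above. No test of this difference between the sets was made.

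**Figure D4:**
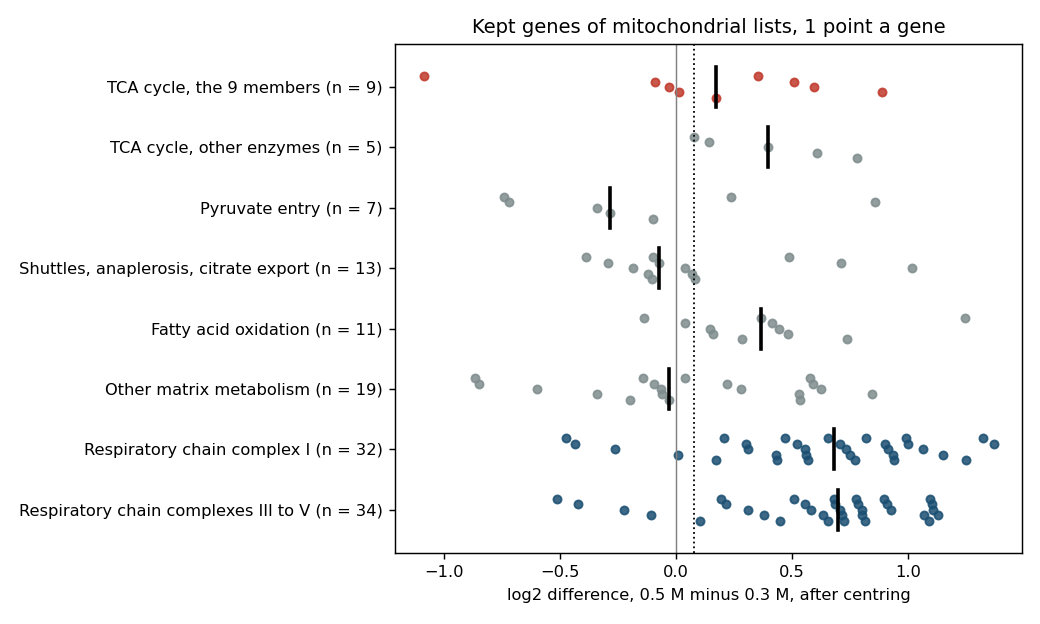
The log2 difference (0.5 M minus 0.3 M, after centring) of kept genes in 8 lists, 1 point a gene, with black bars at the list medians, a dotted line at the median of all kept genes (0.08) and vertical spread within a row for legibility. The 9 TCA cycle enzymes (red) spread from -1.09 to 0.89, the respiratory chain lists (blue) have medians of 0.68 and 0.70, and the other lists (grey) lie between -0.29 and 0.40.

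Complex I, which takes electrons from the NADH that the cycle makes, had a median of 0.68 over 32 kept genes, with 29 above 0 and 5 at least 2-fold higher (2 as deposited, with quantile normalization or with loess). Its largest differences were in Ndufa7 (1.37), Ndufv3 (1.33), Ndufa6 (1.25) and Ndufb7 (1.15). Ndufa11 (20 to 34, 1.07), also at least 2-fold higher, and Ndufa3 (25 to 30, 0.56) were kept through their 0.5 M values alone. Both therefore had to be higher there. Complexes III to V had a median of 0.70 over 34, with 30 above 0 and 6 at least 2-fold higher. With loess the median was 0.30, and past 2-fold in either direction were 0 as deposited, 0 with quantile normalization, 1 with loess and 2 with a pseudocount. Atp5e (1.13), Cox8a (1.11), Atp5h (1.10) and Cox6a1 (1.09) led them. Cycs (38 to 23, -0.42) was kept through its 0.3 M value alone and so had to be lower at 0.5 M. The 9 cycle enzymes reached 0.89 at most.

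Genes of pyruvate entry, which feed acetyl-CoA into the cycle, lay mostly on the other side. Of 13 on the array, 7 were kept, with a median of -0.29, and 2 lay above 0. The median was negative as deposited (-0.58), with quantile normalization (-0.29) and with loess (-0.28). In the pyruvate dehydrogenase complex, the E2 acetyltransferase Dlat went from 389 to 192 (-0.72) and the E1 alpha subunit Pdha1 from 53 to 34 (-0.34). The E1 beta subunit Pdhb went from 71 to 68 (0.24, -0.06 as deposited) and the E3-binding protein Pdhx from 19 to 28 (0.86). Pdhx was kept through its 0.5 M value alone and so had to be higher there. Of the kinases that switch the complex off, Pdk2 went from 72 to 35 (-0.74), Pdk3 from 161 to 122 (-0.10) and Pdk4 from 33 to 22 (-0.29). Pdk4 was kept through its 0.3 M value alone and so had to be lower at 0.5 M. Dlat and its counterpart Dlst in the cycle are the acyltransferase cores of related complexes. Both were lower in raw intensity at 0.5 M, where 30.6% of shared probes were brighter. After centring Dlst was at -0.09, against -0.72 for Dlat. None of the 7 passed 2-fold after centring, though Dlat (-1.02) and Pdk2 (-1.04) did as deposited.

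Genes of shuttles, anaplerosis and citrate export had a median of -0.07 over 13 kept genes, with 6 above 0. Pck2, the mitochondrial phosphoenolpyruvate carboxykinase, went from 127 to 209 (1.02) and was the 1 gene of this list past 2-fold. It fell short of that as deposited (0.72), with quantile normalization (0.89) and with loess (0.91). Acat1 (0.71), the mitochondrial acetoacetyl-CoA thiolase, and Glud1 (0.49), which turns glutamate into 2-oxoglutarate, stood against the malic enzyme Me2 (-0.39). Fatty acid oxidation genes had a median of 0.37 over 11, with 10 above 0. That list was led by the dim Acadm (14 to 27, 1.25), a medium-chain acyl-CoA dehydrogenase that was kept through its 0.5 M value alone and so had to be higher there, followed by the electron carrier subunit Etfb (0.74), Eci1 (0.48) and Echs1 (0.44). The median of the fatty acid oxidation list was 0.07 as deposited and 0.25 with quantile normalization, against -0.22 and 0.00 for all kept genes. With quantile normalization and with loess, 10 of its 11 genes lay above 0. Relative to the median of their own brightness group, 10 of the 11 lay above. Other matrix enzymes had a median of -0.03 over 19, with 9 above 0. Their members ranged from Pcca (-0.87), a propionyl-CoA carboxylase subunit, and the lipoate synthase Lias (-0.85) to Alas1 (0.62) and Aldh2 (0.84). Lias was kept through its 0.3 M value alone and so had to be lower at 0.5 M.

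Glycolysis genes, which make the pyruvate, had a median of 0.45 over 13 kept genes, all 13 above 0 after centring and 10 of 13 as deposited. As deposited, 2562 of all 7446 kept genes lay above 0. Aldoa (1.23), Aldoc (1.09), Tpi1 (0.91) and Gapdh (0.88) had the largest differences. The 3 genes nearest to the mean pair of levels of the 9 enzymes, by Euclidean distance over 2 arrays, were Ctnna3 (distance 0.02), Acot9 (0.02) and Gm8121 (0.03). With 2 arrays many genes share such a pair of levels.

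Markers of the labelled cell type were present. Of 13 CTL and T cell markers on the array, 12 were kept, with a median difference of 0.56 (0.26 as deposited and 0.14 with loess). Their intensities summed to 49553 at 0.3 M and 35429 at 0.5 M, most of it from Tbx21 (39433 and 25174). The coreceptor gene Cd8a (3677 and 2463) and the granzyme gene Gzmb (2493 and 2838) were bright, whereas Cd3e (12 and 14) was dim. Markers of other cells moved between the fractions. B cell and MHC class II markers summed to an intensity of 796 at 0.3 M and 2221 at 0.5 M, with 7 of 8 kept genes at least 2-fold higher (H2-Aa 2.50, Cd74 2.43). Among that list's B cell genes, Cd79b went from 94 to 328 (2.10) and Blnk from 26 to 63 (1.58). Blnk and Ciita (19 to 38), both among the 7, were kept through their 0.5 M values alone and so had to be higher there. Cd22 went the other way, from 225 to 126 (-0.54), and Cd79a was dim at 15 and 11. Pax5 had no value on either array and Ms4a1 was at 21 on both. Red cell and platelet markers summed to 17442 and 8098, with 6 of 7 kept genes at or below 0 (Hbb-bs 2.01-fold lower and Hba-a2 1.72-fold lower). Among these, Pf4 (33 to 20) was kept through its 0.3 M value alone and so had to be lower at 0.5 M. Alas2 (28 on both arrays), the gene above 0, was kept through the 0.5 M array alone and had to be higher after centring. Liver and muscle markers had 0 of 7 kept. The part of these cells in the differences of the cycle enzymes was not tested.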

How the data were processed

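RNA was measured in 2 vesicle fractions, with 1 single-colour array for each. The values deposited by the authors are linear probe intensities rounded to whole numbers; the scanner, any background correction or normalization, and why some cells are empty are not given here. Per the labels' protocols, amplification used amino allyl chemistry and the dye was Cy5. Of 23473 probes, 20690 carried 1 symbol, 0 several and 2783 none. Symbols were updated through RefSeq genes (assembly GRCm38.p6) for 20556 probes by Entrez identifier and 9 by accession, and 125 kept the array's symbol. Coordinates are left out because the array's build is not stated.

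Intensities were log2-transformed and centred on the median of shared probes, empty cells were left empty, and different probes of a gene were averaged. The calculation was tested on simulated data with a constant shift between the arrays and changes well past 2-fold. These data held less noise than the spread between probes of a gene and no trend with brightness. The test therefore does not bear on the smaller differences described here. Alternatives were no centring, quantile normalization, a loess trend (span 0.3), other filters, a pseudocount of 16 and other rules for probes; the first 3 kept the same gene set. Python 3.11.15 and statsmodels 0.14.6 were used. Members and lists were chosen with earlier results of these data known. Named were all 9 enzymes, all kept genes of the cycle and pyruvate lists, and the 3 genes of nearest level. Of other lists the 4 kept genes with the largest absolute difference were named (in marker lists Cd8a, Cd3e and Gzmb for T cells and the top 2 elsewhere). Other cycle genes, Csl, Tbx21, the Slc25a carriers, Pax5, Ms4a1, Cd79a, Cd79b, Cd22 and Blnk were added after their values were seen. So were Hadhb, Ndufa3, Ndufa11, Cycs, Ciita, Pf4 and Alas2.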

Additional observations from a re-analysis of the deposited data

How the results depend on the processing

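Under each setting, each of the 9 enzymes moved by less than the spread between probes of a gene (0.55). Mdh2 moved most, by -0.53 with loess, which exceeds the spread of 0.48 between bright probes, and Mdh1 and Mdh2 changed sign. The median difference of the 9 enzymes, 0.17 after centring, was -0.13 with the values as deposited, -0.042 with quantile normalization and -0.039 with the loess trend removed. It was 0.34 with the stricter filter on dim genes, which left 6 enzymes without Idh3a, Ogdh and Fh1, and 0.066 with a pseudocount of 16. In the last 2 settings 0 of the enzymes passed 2-fold, in place of 1. The direction of this median therefore rests on the scaling, and the median of all kept genes shifted with it. The lists of shuttles (0.060) and of other matrix metabolism (0.038) turned from below to above 0 with the stricter filter. Centring on kept genes, no filter, the brightest probe and each probe on its own gave medians from 0.12 to 0.17. With 5 brightness groups in place of 10 the median deviation of the enzymes was -0.03, and with a loess span of 0.6 their median was -0.04. The spread between probes was 0.48 over 147 genes with bright probes. No paired analysis was possible because each group holds 1 array. Dim probes, among them Ogdh, Fh1 and Idh3a at 0.5 M, limit what can be read from single genes.

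Over all kept genes, 390 were at least 2-fold higher and 175 at least 2-fold lower after centring, against 121 and 579 as deposited, 242 and 288 with quantile normalization and 231 and 293 with loess.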
